A study of Vitis vinifera with 36 samples.

Results

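Glutathione S-transferases (GSTs) were followed in the berries of the early-ripening grape bud sport ‘Nantaihutezao’ and of its parent ‘Summer Black’. A gene was taken as a member of the family when its deposited Pfam annotation names a glutathione S-transferase domain or the N-terminal GST domain, with 1 gene left out by the rule and not analysed here. The rule gave 103 members among the 27751 genes of the table, and no expression value entered it. Pericarp RNA was sequenced at 6 stages, from veraison (S5, the onset of ripening) to maturity (S10), sampled 7 days apart in vines of each cultivar grown in a plastic film greenhouse. The groups are ‘Nantaihutezao’ at S5, S6, S7, S8, S9 and S10 and ‘Summer Black’ at the same 6 stages, each with 3 libraries lettered a, b and c, hence 36 libraries. A bud sport is a shoot that differs from its parent plant by a somatic mutation and is propagated by cuttings or grafts, so ‘Nantaihutezao’ is a single clone and shares the background of ‘Summer Black’. The study describes it as maturing earlier. Because the stages are counted from veraison in each cultivar, whether the same stage fell on the same calendar date is not given in the sources used here.

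GSTs join the tripeptide glutathione to reactive or toxic molecules, which the plant cell then moves into the vacuole. The tau and phi classes belong to plants and carry most of this conjugating activity, and in several species a phi class GST is needed for anthocyanin, the red and blue pigment of fruit skins, to reach the vacuole. Other classes do different work with the same fold, for example lambda GSTs and dehydroascorbate reductases (DHAR), which use glutathione to reduce other molecules. DHAR keeps vitamin C in its reduced form.

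The libraries held 15323095 to 20469617 reads counted on genes, of which the members took between 0.479 and 1.51%. Each of the 36 libraries correlated more closely with the other libraries of its own group than with any library of another group. The ‘Summer Black’ libraries at S5 stood apart, with a highest correlation with other groups of 0.915 to 0.919, and the closeness within a group was lowest between libraries a and c of ‘Summer Black’, with a correlation of 0.987 at S9 and 0.990 at S8. UFGT, the glucosyltransferase that completes anthocyanin in grape skin, was read in every library. At S5 its level was 349.8 to 385 CPM (read counts scaled to library size) in ‘Nantaihutezao’ and 6.45 to 7.28 CPM in ‘Summer Black’, and at S10 it was 286.5 to 310.6 CPM in ‘Nantaihutezao’ and 612.7 to 657.3 CPM in ‘Summer Black’. A list of 9 seed genes (oleosins and storage proteins) summed to 3.41 to 26.1 CPM per library, with the highest sums, 22.9 to 26.1 CPM, in ‘Nantaihutezao’ at S7, against 8.41 to 11.9 CPM in ‘Summer Black’ at S7, and 4 or 5 of the 9 genes had no read in a group.

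By their annotation, 72 members are of the tau class, 9 of phi, 4 of lambda, 2 of DHAR and 2 of zeta, the class of maleylacetoacetate isomerase in tyrosine breakdown. Theta and the tetrachlorohydroquinone dehalogenase-like (TCHQD) class have 1 member each. There are 2 glutathionyl-hydroquinone reductases (GHR), 2 subunits gamma of the translation elongation factor EF1B and 2 tRNA ligases, the last of which carry a GST-like domain without being detoxifying enzymes, and 6 members have no class in their annotation. Many share the first part of their identifier, with 12 members in 19s0093, 8 in 19s0015, 8 in 17s0000 and 7 in 01s0026, not all of them consecutive. Such sets can hold near-identical gene copies, the counting tool is not given in the sources used here, and how reads that fit more than one copy were assigned is not known here. A RefSeq gene is shared by the members of 5 pairs, among them VIT_01s0026g01370 and VIT_01s0026g01380.

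The family spanned the whole range of expression. Of the 103 members, 21 had no read in any library, all of them tau GSTs. A count of 0 allows up to 3 reads, or 0.196 CPM in the smallest library. On the FPKM scale (fragment counts scaled to gene length and library size), 43 members had a mean level under 1 over the 36 libraries, 18 between 1 and 10, 27 between 10 and 100 and 15 at 100 or more. The tau gene VIT_19s0093g00190, annotated as close to tobacco parC, an auxin-regulated GST, reached a mean of 7028 FPKM and ranked as number 13 among all genes. The phi gene VIT_04s0079g00710, annotated as F11, ranked as number 28 with 3827 FPKM, and the tau gene VIT_19s0015g02690 as number 131 with 868 FPKM. These first 2 genes held between 41.3 and 73.2% of all members' CPM in a library.

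**Figure D1:**
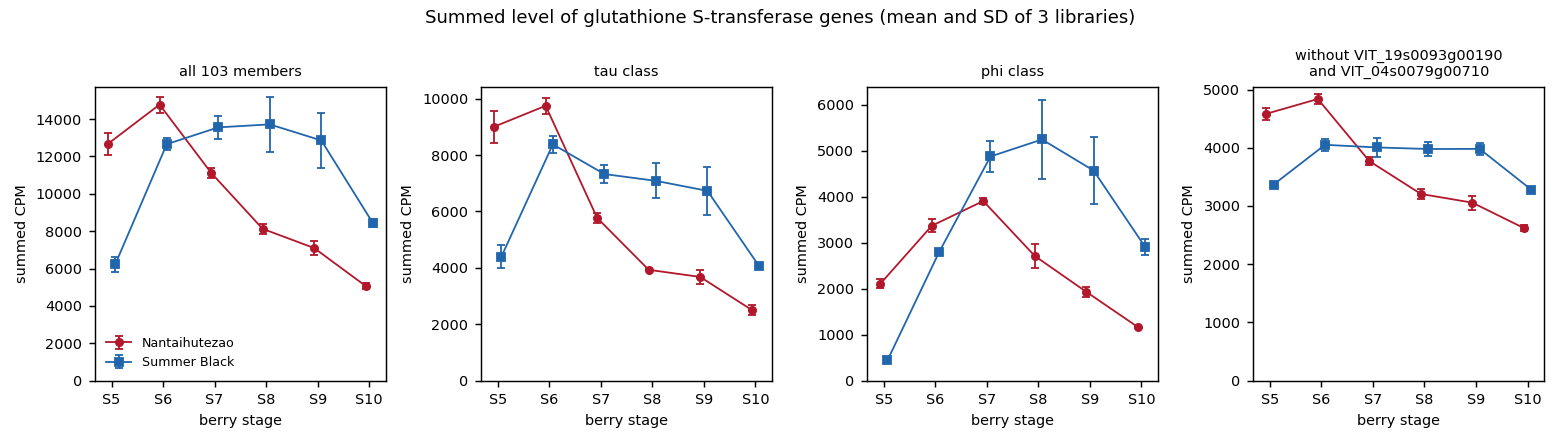
Summed CPM (vertical axis) of all 103 members, of the tau class, of the phi class and of the members without the 2 most abundant, at each berry stage (horizontal axis), in ‘Nantaihutezao’ (red circles) and ‘Summer Black’ (blue squares). Points are means and bars the SD of 3 libraries. In all 4 panels ‘Nantaihutezao’ is above ‘Summer Black’ at S5 and S6 and below it from S7 on.

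The summed level of the family crossed over between the cultivars during ripening. At S5 it was 12680 ± 602 CPM in ‘Nantaihutezao’ and 6221 ± 392 CPM in ‘Summer Black’ (SD, n = 3 each, as for all sums here), and at S6 it was 14780 ± 432.4 CPM in ‘Nantaihutezao’ and 12660 ± 326 CPM in ‘Summer Black’. From S7 on the sport was lower, with 8128 ± 258 CPM in ‘Nantaihutezao’ against 13720 ± 1457 CPM in ‘Summer Black’ at S8 and 5065 ± 165 CPM in ‘Nantaihutezao’ against 8437 ± 225 CPM in ‘Summer Black’ at S10. The tau class alone summed to 9008 ± 572 CPM in ‘Nantaihutezao’ and 4391 ± 410 CPM in ‘Summer Black’ at S5, and to 2506 ± 163 CPM in ‘Nantaihutezao’ and 4069 ± 63.3 CPM in ‘Summer Black’ at S10. The phi class summed to 2103 ± 99.6 CPM in ‘Nantaihutezao’ and 437 ± 17.0 CPM in ‘Summer Black’ at S5, and to 1164 ± 24.0 CPM in ‘Nantaihutezao’ and 2910 ± 176 CPM in ‘Summer Black’ at S10. With the 2 most abundant genes taken out, the order of the cultivars was the same at both ends, 4583 ± 103 CPM in ‘Nantaihutezao’ against 3367 ± 35.2 CPM in ‘Summer Black’ at S5 and 2619 ± 56.6 CPM in ‘Nantaihutezao’ against 3281 ± 8.17 CPM in ‘Summer Black’ at S10. The sums are descriptions without a test. In whole pericarp, more cells of a type and more RNA per cell cannot be told apart.

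Stage by stage, every gene with enough counts was then tested for a difference between the cultivars over 6 libraries, by edgeR's quasi-likelihood F test. A gene was called at a false discovery rate (FDR, Benjamini-Hochberg) under 0.05 with an absolute log2 fold change over 1, and every log2 fold change between cultivars is ‘Nantaihutezao’ over ‘Summer Black’. The study names 3 biological replicates and berries picked from 2 clusters at each sampling. Neither it nor the labels say whether the 3 libraries of a group came from separate vines. The FDR values therefore measure the spread between these libraries, which may in part be technical. At S5, 64 members had enough counts to be tested, 6 were higher and 8 lower in ‘Nantaihutezao’, where 7.51% of all tested genes were higher and 8.63% lower. At S6, 2 of 59 were higher and 2 lower, against 2.69% and 3.89% of all genes. At S7, 2 of 58 were higher and 4 lower, against 3.47% and 4.55% of all genes. These shares of members stayed within a few percentage points of those of all genes. At S8, 1 of 57 was higher and 8 lower, against 2.71% and 3.76% of all genes. At S9, 2 of 60 were higher and 9 lower, against 3.44% and 1.85%. At S10, 1 of 60 was higher and 11 lower, against 3.59% and 5.1%. Hence 14.0, 15 and 18.3% of the tested members were lower in the sport at S8, S9 and S10, above the shares of all genes. Among tested members the log2 fold changes had medians of 0.01 and 0.02 in the stages S5 and S6, of -0.17 in S7, -0.09 in S8, -0.14 in S9 and -0.22 in S10, where that of all genes lay between -0.02 and 0.01. Without library a of ‘Summer Black’, 1 member was higher and 6 lower at S8, and 2 were higher and 7 lower at S9, while without its library c, 8 were lower at S8 and 9 at S9. Leaving out library a of ‘Nantaihutezao’ left 5 lower at S8 and 0 lower at S6, and leaving out library c of ‘Nantaihutezao’ or library a of ‘Summer Black’ left 1 lower at S6. At S10, 2 were higher without library c of ‘Nantaihutezao’ or library a or c of ‘Summer Black’. With glmTreat, which tests against the fold threshold itself, 2, 2 and 5 members were lower at S8, S9 and S10, that is 3.51, 3.33 and 8.33% of those tested, against 1.1, 0.308 and 2.36% of all genes.

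**Figure D2:**
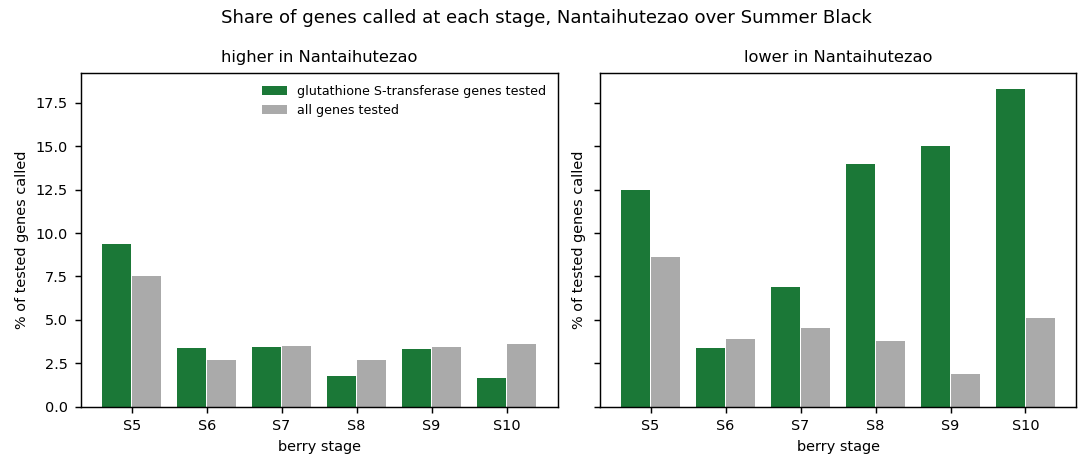
Share of the tested GST genes (green, left bar) and of all tested genes (grey, right bar) that were called at each berry stage, higher (left panel) or lower (right panel) in ‘Nantaihutezao’ than in ‘Summer Black’, in % of genes tested. The green bars of the right panel stand at 14.0, 15 and 18.3% at S8, S9 and S10, above the grey bars of 3.76, 1.85 and 5.1%.

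Of the 103 members, 65 were tested at 1 or more stages and 56 at all 6, while 38 never had enough counts. A total of 27 members were called at 1 or more stages, 8 of them higher and 21 lower, and 2 of these, VIT_04s0079g00710 and VIT_19s0015g02690, were higher at one stage and lower at another. As shares of the 65 tested, 41.5% were called, 12.3% higher and 32.3% lower, where 26.2% of all tested genes were called at 1 or more stages, 13.1% higher and 15.6% lower. The other 38 tested members were called at no stage. Among the 27 are 22 tau, 4 phi and 1 zeta GST. The members tested at S5 included 34 tau, 8 phi and 2 zeta GSTs.

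**Figure D3:**
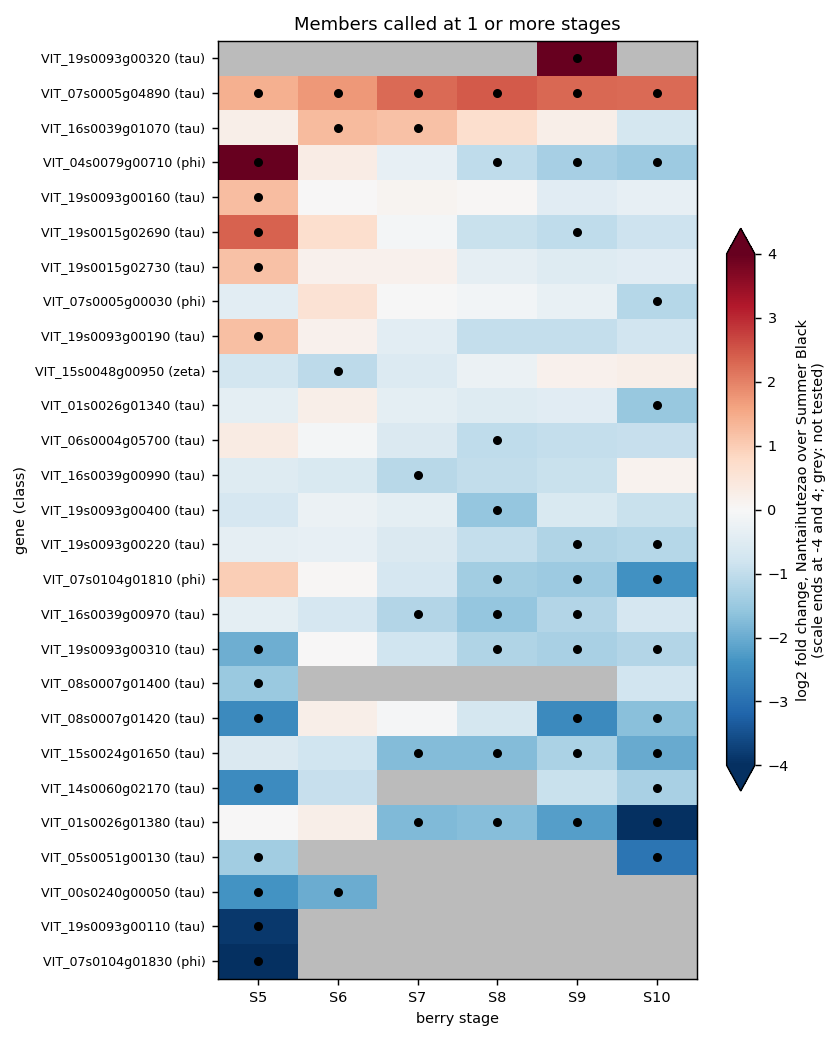
Log2 fold change of ‘Nantaihutezao’ over ‘Summer Black’ (colour, red higher and blue lower, scale ending at -4 and 4) for the 27 members called at 1 or more stages (rows, with their class) at each berry stage (columns). Black dots mark calls and grey cells members with too few counts to be tested. VIT_07s0005g04890 is the only row with dots at all 6 stages, and the dots of the later stages stand mostly on blue cells.

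The phi gene VIT_04s0079g00710 showed the largest difference among the members at S5. Its libraries a, b and c had 1588, 1742 and 1635 CPM in ‘Nantaihutezao’, against 22.7, 22.0 and 21.3 CPM in ‘Summer Black’, which is 75.5-fold (log2 fold change 6.24, SE 0.048, FDR 2.07e-20). At the next stage the libraries of the cultivars lay close together, with 2916, 2880 and 3118 CPM in ‘Nantaihutezao’ and 2485, 2464 and 2379 CPM in ‘Summer Black’ at S6. The mean was highest at S7 in ‘Nantaihutezao’ (3580 ± 60.8 CPM, SD, n = 3) and at S8 in ‘Summer Black’ (4959 ± 877 CPM, SD, n = 3). At S10 the libraries held 994.1, 1011 and 975 CPM in ‘Nantaihutezao’ and 2889, 2671 and 2536 CPM in ‘Summer Black’, and the groups did not overlap. The log2 fold change passed from -0.33 at S7, which was not called, to -1.01 (SE 0.11, FDR 3.37e-05) at S8, -1.33 (SE 0.11, FDR 1.49e-05) at S9 and -1.45 (SE 0.045, FDR 2.97e-13) at S10. The call at S8 sits at the threshold, since without library a of ‘Summer Black’, which had 5962 CPM against 4330 and 4586 CPM in b and c, the log2 fold change at S8 was -0.86, and the call was also lost without library a or b of ‘Nantaihutezao’ and with the library letter as a block. UFGT was likewise higher in the sport at S5 and lower at S10, with the values given above, and its part in these differences was not tested.

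The most abundant member, the tau gene VIT_19s0093g00190, crossed over in the same way but with smaller differences. At S5 its libraries had 6658, 6820 and 5834 CPM in ‘Nantaihutezao’, against 2359, 2992 and 3146 CPM in ‘Summer Black’ (log2 fold change 1.19, SE 0.077, FDR 1.61e-09). All 3 libraries of the sport were above all 3 of the parent. At S8 the order was the other way, with 2508, 2410 and 2447 CPM in ‘Nantaihutezao’ and 5305, 4500 and 4534 CPM in ‘Summer Black’. The log2 fold change there was -0.96 (SE 0.064, FDR 9.42e-07), as it was at S9 (-0.96, SE 0.10, FDR 9.07e-05), and -0.76 (SE 0.060, FDR 2.49e-08) at S10. These differences pass the FDR threshold but stay short of the fold threshold, so that this gene is not among the 8, 9 and 11 members counted as lower at the last 3 stages.

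The tau gene VIT_19s0015g02690, annotated as close to Arabidopsis U25, had 1034, 1144 and 1152 CPM in ‘Nantaihutezao’ and 210.5, 214 and 227.2 CPM in ‘Summer Black’ at S5, a difference of 5.12-fold (log2 fold change 2.36, SE 0.043, FDR 4.15e-16). At S9 it had 320.1, 301.6 and 344.6 CPM in ‘Nantaihutezao’ and 768.5, 596.4 and 621.2 CPM in ‘Summer Black’ (log2 fold change -1.03, SE 0.097, FDR 4.15e-05). Without library a of ‘Summer Black’ the value at S9 was -0.92 and not called, and the call was also lost without library b of ‘Nantaihutezao’. At S6 it had 1419, 1409 and 1471 CPM in ‘Nantaihutezao’ and 860.9, 944.7 and 918.5 CPM in ‘Summer Black’, without overlap but not called. Hence its mean was higher in the sport at S5 and S6 and at or below that of the parent from S7 on.

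The same set of identifiers, 19s0015, holds 3 further tau GSTs with higher means at S10 than at S5 in both cultivars, VIT_19s0015g02730 and VIT_19s0015g02890, both annotated as parC-like, and VIT_19s0015g02590, which is named here after its values were seen. VIT_19s0015g02730 had 62.3, 68.9 and 67.6 CPM in ‘Nantaihutezao’ and 29.5, 30.6 and 29.0 CPM in ‘Summer Black’ at S5 (log2 fold change 1.16, SE 0.056, FDR 4.06e-11), the only stage at which it was called. VIT_19s0015g02890 had 129.3, 131.2 and 132.2 CPM in ‘Nantaihutezao’ and 70.9, 65.5 and 65.7 CPM in ‘Summer Black’ at S5, a log2 fold change of 0.96 (SE 0.041) just short of a call. From S8 to S10 the log2 fold changes of all 3 genes lay between -0.36 and -0.86, and none was called.

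Of the other abundant members, the tau gene VIT_06s0004g05700, annotated as U8, was lower at S10 than at S5 in both cultivars. At S8 it had 195.6, 211.6 and 193 CPM in ‘Nantaihutezao’ and 394.7, 425.9 and 387.3 CPM in ‘Summer Black’ (log2 fold change -1.01, SE 0.057, FDR 2.49e-07), a call at the threshold that was lost without library a or c of ‘Nantaihutezao’ or library b of ‘Summer Black’. Its log2 fold change was -0.94 at S9 and -0.93 at S10. VIT_01s0026g01340, annotated as U17, a GST that in Arabidopsis takes part in light signalling and seedling development, differed at maturity, with 75.5, 65.6 and 70.5 CPM in ‘Nantaihutezao’ and 220.2, 189.7 and 193.6 CPM in ‘Summer Black’ at S10 (log2 fold change -1.52, SE 0.060, FDR 5.18e-12). At S8 its libraries a, b and c of ‘Summer Black’ were 270.9, 154.7 and 155.8 CPM, against 133.2, 135.3 and 138.7 CPM in ‘Nantaihutezao’, so library a alone set the ‘Summer Black’ mean well above that of the sport at S8.

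**Figure D4:**
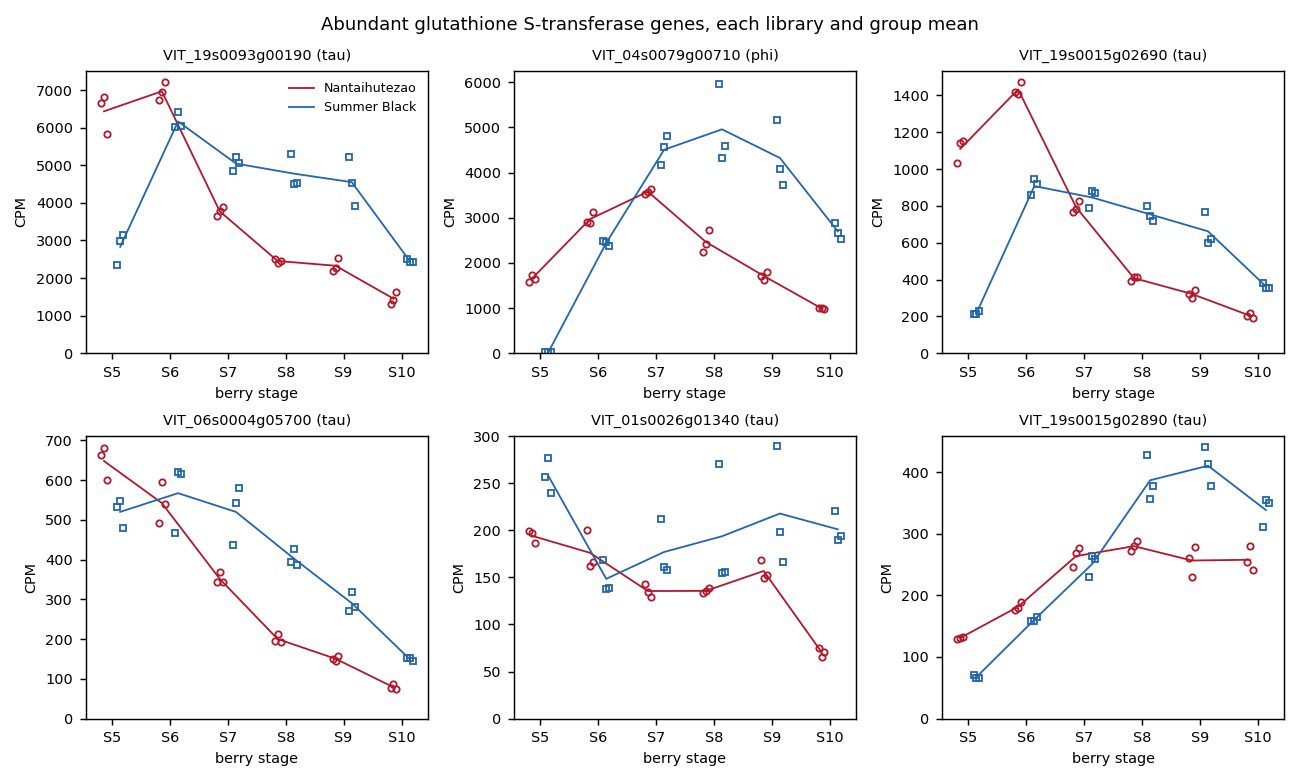
CPM (vertical axis, from 0) of 6 abundant GST genes at each berry stage (horizontal axis), 1 point per library, in ‘Nantaihutezao’ (red circles, left of each stage) and ‘Summer Black’ (blue squares, right). Lines join the means of 3 libraries. For VIT_04s0079g00710 the 3 ‘Summer Black’ points at S5 lie at 21.3 to 22.7 CPM, near the axis, and those of ‘Nantaihutezao’ at 1588 to 1742 CPM.

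Only 1 member, the tau gene VIT_07s0005g04890, annotated in the non-redundant protein database as GST 23, was called higher in ‘Nantaihutezao’ at all 6 stages. Its level was also higher at S10 than at S5 in both cultivars. Its libraries had 0.795, 1.48 and 1.75 CPM in ‘Nantaihutezao’ and 0.898, 0.213 and 0.373 CPM in ‘Summer Black’ at S5, where the groups overlapped. At S7 they had 3.39, 3.17 and 4.26 CPM in ‘Nantaihutezao’ and 0.647, 0.751 and 0.859 CPM in ‘Summer Black’, and at S10 they had 25.8, 28.2 and 25.4 CPM in ‘Nantaihutezao’ and 6.73, 4.75 and 4.95 CPM in ‘Summer Black’. The log2 fold changes from S5 to S10 were 1.43 (SE 0.46, FDR 0.0128), 1.72 (SE 0.41), 2.25 (SE 0.25), 2.44 (SE 0.22), 2.31 (SE 0.18) and 2.26 (SE 0.11, FDR 9.18e-11). The call at S5 rests on 76 and 28 reads over the 3 libraries of ‘Nantaihutezao’ and ‘Summer Black’ and was lost when library c of ‘Nantaihutezao’ or library b or c of ‘Summer Black’ was left out, with log2 fold changes from 1.06. The test of a difference in its cultivar effect between stages gave an FDR of 0.46. How many of all genes were called higher at all 6 stages is not given here.

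VIT_01s0026g01380, a further U17-like tau GST of 01s0026, did the opposite late in ripening. Both cultivars began alike, with 34.8, 32.6 and 27.9 CPM in ‘Nantaihutezao’ and 31.5, 33.4 and 30.02 CPM in ‘Summer Black’ at S5 (log2 fold change 0.01, FDR 0.918). At S7 the libraries of ‘Nantaihutezao’ had 5.60, 5.001 and 5.77 CPM and those of ‘Summer Black’ 19.5, 19 and 17.5 CPM. At S10 they had 0.806, 0.855 and 0.697 CPM in ‘Nantaihutezao’, against 18.9, 15.4 and 15.6 CPM in ‘Summer Black’, which is 21.1-fold lower. The transcript was thus nearly lost in the sport while the parent kept about its S6 level. The log2 fold changes were -1.77 (SE 0.10) at S7, -1.69 (SE 0.15) at S8, -2.20 (SE 0.20) at S9 and -4.40 (SE 0.17, FDR 3.04e-12) at S10.

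Lower values at 3 or 4 stages were found for 5 further members of lower abundance. The share of all genes called lower at as many stages is not given here. The phi gene VIT_07s0104g01810, annotated as F13, had 90.5, 119 and 120.5 CPM in ‘Nantaihutezao’ and 57.0, 53.0 and 57.9 CPM in ‘Summer Black’ at S5, a log2 fold change of 0.98 that was not called. At S10 it had 2.80, 2.14 and 1.66 CPM in ‘Nantaihutezao’ and 12.4, 10.5 and 12.2 CPM in ‘Summer Black’ (log2 fold change -2.41, SE 0.17, FDR 5.00e-09). It was also lower at S8 (-1.39, SE 0.10) and S9 (-1.47, SE 0.10), and the groups did not overlap at these 3 stages. The tau gene VIT_15s0024g01650, annotated as close to HSP26-A of soybean, a heat- and stress-induced GST, was lower from S7 to S10, with log2 fold changes of -1.74, -1.73, -1.26 and -2.01. At S7 it had 1.35, 1.67 and 1.08 CPM in ‘Nantaihutezao’ and 4.10, 4.99 and 4.67 CPM in ‘Summer Black’, and at S10 no library of the sport had over 0.534 CPM. Its call at S9 was lost without any 1 library of ‘Nantaihutezao’, without library c of ‘Summer Black’ and in DESeq2. VIT_19s0093g00310, of the tau class, was lower at S5, S8, S9 and S10. Its largest gap was at S5, with 13.4, 15.9 and 14.5 CPM in ‘Nantaihutezao’ and 55.6, 57.9 and 56.2 CPM in ‘Summer Black’ (log2 fold change -1.95, SE 0.066, FDR 5.06e-13), while at S6 the groups overlapped (log2 fold change 0.02). VIT_08s0007g01420, a U8-like tau GST, was lower at S5 (-2.53, SE 0.16), S9 (-2.56, SE 0.50) and S10 (-1.67, SE 0.43), with group means under 3 CPM at the last 2 stages. VIT_16s0039g00970, a tau GST annotated as GST 23-like and named after its values were seen, was lower at S7 (-1.18, SE 0.12), S8 (-1.54, SE 0.24) and S9 (-1.17, SE 0.23). At S7 it had 4.90, 4.14 and 4.37 CPM in ‘Nantaihutezao’ and 10.2, 10.4 and 9.77 CPM in ‘Summer Black’. Its call at S9 was lost without library a of ‘Summer Black’.

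**Figure D5:**
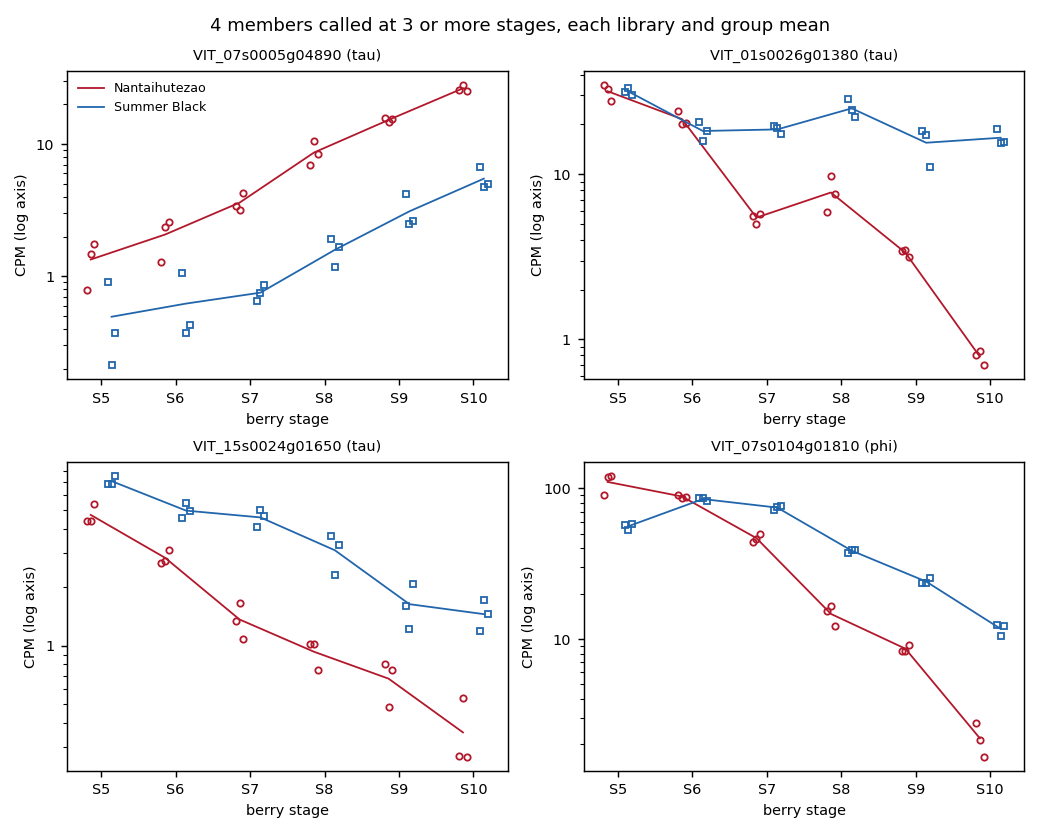
CPM (vertical log axis) of 4 less abundant members at each berry stage (horizontal axis), 1 point per library, in ‘Nantaihutezao’ (red circles, left of each stage) and ‘Summer Black’ (blue squares, right), with lines through the means of 3 libraries. VIT_07s0005g04890 has the higher mean in the sport at every stage, with libraries that overlap at S5. VIT_01s0026g01380 ends at 0.697 to 0.855 CPM in the sport and at 15.4 to 18.9 CPM in the parent.

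Several of the calls at S5 were of genes read mainly in ‘Summer Black’ at that stage, whose 3 libraries stand apart from all other groups, so that the values rest on this group as a whole. The phi gene VIT_07s0104g01830, annotated as close to tobacco APIC, had 3, 1 and 7 reads in ‘Nantaihutezao’ and 60, 68 and 52 reads in ‘Summer Black’ (log2 fold change -3.99, SE 0.40, FDR 2.62e-07). This gene had enough counts to be tested only through ‘Summer Black’, so the FDR gives no separate support for the difference. From S6 on no library of either cultivar had more than 2 reads of it, so it was read almost only in the parent at veraison. VIT_00s0240g00050, a tau GST, had 28, 13 and 14 reads in ‘Nantaihutezao’ and 115, 90 and 86 reads in ‘Summer Black’ at S5 (log2 fold change -2.40, SE 0.26, FDR 7.57e-07). It was also lower at S6 (-1.99, SE 0.56, FDR 0.0115), on 1, 4 and 4 reads in ‘Nantaihutezao’ and 13, 14 and 10 reads in ‘Summer Black’, a call that was lost without library a of ‘Nantaihutezao’. At S6 it too had enough counts to be tested only through ‘Summer Black’. The tau gene VIT_14s0060g02170, named after its values were seen, showed the same picture at a higher level, 3.07, 3.16 and 2.38 CPM in ‘Nantaihutezao’ against 16.8, 17.6 and 14.6 CPM in ‘Summer Black’ at S5 (log2 fold change -2.50, SE 0.13). The opposite case was VIT_19s0093g00320, the gene that RefSeq calls GST1 and that is annotated as close to tobacco parA. At S9 it had 13, 17 and 14 reads in ‘Nantaihutezao’ and none in the 3 libraries of ‘Summer Black’. By raw library totals, this is a level at least 14.4-fold higher in the sport against the floor of 3 reads over the group. It had enough counts to be tested at S9 only through ‘Nantaihutezao’. It was too low to be tested at the other stages, where at S10 it had 19, 15 and 9 reads in ‘Nantaihutezao’ and 6, 3 and 4 in ‘Summer Black’.

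In the smaller classes few members were called. Of the 4 lambda GSTs, none was called at any stage. VIT_08s0040g03100, the lambda GST with the most FPKM, had log2 fold changes of 0.43 to 0.70 at S5 to S8, with 148.9 ± 2.29 CPM in ‘Nantaihutezao’ and 105.1 ± 2.66 CPM in ‘Summer Black’ at S5 (SD, n = 3 each), and its neighbour VIT_08s0040g03040 had log2 fold changes of 0.65 at S6 and -0.75 at S10. The 2 DHAR genes together summed to 134.5 ± 3.09 CPM in ‘Nantaihutezao’ and 104.9 ± 2.20 CPM in ‘Summer Black’ at S5, and to 92.6 ± 3.69 CPM in ‘Nantaihutezao’ and 88.6 ± 3.26 CPM in ‘Summer Black’ at S10. At S5 VIT_00s0317g00050 had 107.9 ± 2.07 CPM in ‘Nantaihutezao’ and 78.3 ± 0.203 CPM in ‘Summer Black’ (log2 fold change 0.47, SE 0.037, FDR 1.78e-08), and VIT_14s0006g00630 differed most at S6 (-0.53, SE 0.069). The zeta gene VIT_12s0035g02110 had log2 fold changes of 0.42 to 0.52 at S5, S6, S7, S8 and S10, all short of a call, and the other zeta gene, VIT_15s0048g00950, was called lower at S6 (-1.06, SE 0.35, FDR 0.0273) at a mean of 0.678 ± 0.033 CPM in ‘Nantaihutezao’ and 1.42 ± 0.478 CPM in ‘Summer Black’. That call was lost in 4 of the 6 fits that left out 1 library. The theta gene VIT_02s0025g03620 stayed between 88.7 and 122.9 CPM as a group mean, with its largest log2 fold change at S6 (0.39, SE 0.045). TCHQD, VIT_18s0001g01690, had group means of 5.17 to 8.05 CPM and differed most at S6 (0.61, SE 0.13). For the subunits gamma of EF1B, VIT_18s0041g01900 and VIT_12s0035g01130, no log2 fold change was beyond -0.32 at any stage. The 2 GHR genes and the 2 tRNA ligases were called at no stage, with their largest log2 fold changes, among the stages tested, at S7 for VIT_01s0011g01890 (-0.72, SE 0.37), which was not tested at S10, and VIT_07s0005g04180 (-0.54, SE 0.12) and at most -0.39 for VIT_13s0067g03060 and -0.25 for VIT_14s0060g00110.

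Maturity was next compared with veraison within each cultivar, on the 6 libraries of S10 and S5. In ‘Nantaihutezao’, 3 of 61 tested members were higher at S10 and 24 lower, against 10.9% and 17.8% of all tested genes, and 5 were higher without library b of S5 or library c of S10. In ‘Summer Black’, 7 of 64 were higher and 18 lower, against 13.0% and 19.3%. As shares, 39.3% of the tested members were lower at maturity in the sport and 28.1% in the parent, above the shares of all genes, and the median log2 fold change of the members was -0.58 in ‘Nantaihutezao’ and -0.36 in ‘Summer Black’, where that of all genes was 0.00 and -0.02. Among those lower at S10 in ‘Nantaihutezao’, VIT_07s0104g01810 differed most (log2 fold change -5.65, SE 0.15, FDR 4.26e-14), with 2.20 ± 0.569 CPM at S10 and 110 ± 16.9 CPM at S5. In ‘Summer Black’ the same gene fell by 2.26 on the log2 scale (SE 0.070). VIT_19s0093g00190 fell by 2.16 (SE 0.074) in ‘Nantaihutezao’, whereas its log2 fold change in ‘Summer Black’ was -0.20 (SE 0.069). VIT_06s0004g05700 fell in both, by 3.05 (SE 0.061) in ‘Nantaihutezao’ and by 1.79 (SE 0.047) in ‘Summer Black’.

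Among members higher at maturity, VIT_07s0005g04890 had the largest change in ‘Nantaihutezao’ (log2 fold change 4.29, SE 0.15, FDR 1.59e-12) and was higher in ‘Summer Black’ as well (3.45, SE 0.33, FDR 8.22e-08). VIT_04s0079g00710 differed most in ‘Summer Black’ (log2 fold change 6.94, SE 0.055, FDR 2.00e-21), with 2698 ± 178 CPM at S10 and 22.0 ± 0.689 CPM at S5, while in ‘Nantaihutezao’ its S10 mean of 993.4 CPM was below its S5 mean of 1655 CPM. The tau genes VIT_19s0015g02730, VIT_19s0015g02890 and VIT_19s0015g02590 had log2 fold changes of 1.04, 0.97 and 1.23 in ‘Nantaihutezao’, where VIT_19s0015g02890 was short of a call, and of 2.67, 2.33 and 2.58 in ‘Summer Black’. VIT_07s0104g01830 had no read at S10 in ‘Summer Black’, against 180 reads (3.18 ± 0.423 CPM) at S5. With a floor of 3 reads at S10 it was 73.8-fold lower at maturity by raw library totals, which are not scaled as the CPM are. It had enough counts to be tested here only through S5. The lambda gene VIT_08s0040g03100 was higher at S10 in ‘Summer Black’ (1.24, SE 0.034), and its neighbour in class VIT_06s0004g03690, named after its values were seen, was lower in ‘Nantaihutezao’ (-1.37, SE 0.070) and in ‘Summer Black’ (-1.05, SE 0.055). The elongation factor subunit VIT_18s0041g01900 fell by 1.01 (SE 0.036) in ‘Nantaihutezao’ and had a log2 fold change of -0.68 (SE 0.034) in ‘Summer Black’.

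To set the cultivars against each other at an earlier stage of the sport, ‘Nantaihutezao’ at S8 was compared with ‘Summer Black’ at S10, with libraries that also entered the comparisons above. Of 61 tested members none was higher and 5 were lower, against 2.08% and 2.51% of all tested genes. An unadjusted p under 0.05 in the edgeR test was found for 35 members, and the share of all genes is not given here. DESeq2 also called none higher and 2 lower, the fit with the library letter as a block called 3 lower, and glmTreat called 0 lower. Members had a median log2 fold change of -0.07. VIT_19s0093g00190 had 2455 ± 49.7 CPM in ‘Nantaihutezao’ at S8 and 2457 ± 49.2 CPM in ‘Summer Black’ at S10 (log2 fold change -0.01, SE 0.032), and VIT_19s0015g02690 had 408.3 ± 11.5 CPM in ‘Nantaihutezao’ and 363.1 ± 18.1 CPM in ‘Summer Black’ at the same stages (log2 fold change 0.16, SE 0.041). VIT_01s0026g01380 was still lower in the sport (-1.11, SE 0.14, FDR 1.64e-05), with 7.75 ± 1.92 CPM in ‘Nantaihutezao’ at S8 and 16.6 ± 1.94 CPM in ‘Summer Black’ at S10. The other 4 called members had means of 1.20 CPM or less in both groups, and leaving out library a of ‘Nantaihutezao’ left 1 call, library b 3, and library a or c of ‘Summer Black’ 2. The call of VIT_01s0026g01380 was lost without library a of ‘Nantaihutezao’, and 1 member was called higher without that library or without library c of ‘Summer Black’.

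A single model of all 36 libraries tested whether the cultivars differed unequally from stage to stage. Of 67 members tested, 50 (74.6%) passed an FDR of 0.05 for the interaction of cultivar and stage, against 63.7% of all genes. The stage with the highest mean was earlier in ‘Nantaihutezao’ for 23 of these 67 members, the same for 28 and later for 16, that is 34.3, 41.8 and 23.9%, where all tested genes gave 27.9, 45.8 and 26.4%. In ‘Nantaihutezao’ 28 of the 67 (41.8%) were highest at S5, against 29.9% of all genes, and in ‘Summer Black’ 26 (38.8%) were, against 33.0% of all genes.

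Enzymes of glutathione metabolism and of the ascorbate cycle linked to it were looked at beside the transferases, as a list of 24 genes taken from their KEGG and Swiss-Prot annotation, which holds glutamate-cysteine ligase, glutathione synthase, glutathione reductases and peroxidases, gamma-glutamyltransferase, monodehydroascorbate reductases and ascorbate peroxidases. At S5, 1 of 20 tested was higher and 2 were lower in ‘Nantaihutezao’, and at S6 to S10 none of 19 was higher and 1 or 2 were lower, beside the shares of all genes given above. The glutathione peroxidase gene VIT_02s0025g03600, of the type that reduces lipid peroxides, had 619.6 ± 2.95 CPM in ‘Nantaihutezao’ and 178.6 ± 7.29 CPM in ‘Summer Black’ at S5 (log2 fold change 1.80, SE 0.034, FDR 5.98e-16). Its neighbour VIT_02s0025g03590, annotated as peroxidase 8, was lower in the sport at S5 to S9, with 6.74 ± 0.414 CPM in ‘Nantaihutezao’ against 31.4 ± 0.963 CPM in ‘Summer Black’ at S5 (-2.21, SE 0.081). The ascorbate peroxidase gene VIT_08s0040g03150 was lower at S8, S9 and S10, with 19.6 ± 0.981 CPM in ‘Nantaihutezao’ and 60.8 ± 4.57 CPM in ‘Summer Black’ at S8 (-1.63, SE 0.076, FDR 6.04e-08). The single genes of glutathione synthesis, glutamate-cysteine ligase and glutathione synthase, were called at no stage.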

How the data were processed

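Total RNA of berry pericarp was made into TruSeq libraries and sequenced on a HiSeq X-ten. The authors removed adapters and low-quality reads, aligned the rest with TopHat 2 to the Vitis vinifera reference and deposited raw read counts per gene for each library, not normalized. The authors also deposited FPKM values (Cuffdiff), used here only to compare levels between genes. A further 37 deposited columns of DESeq comparisons were not used, since they hold the authors' own results, and their headers mix library names of both cultivars. No column of per-sample values was left unmapped.

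Genes with low counts were left out by filterByExpr (at least 10 counts, and 15 in total), scaled by TMM and tested with edgeR 4.0.16 (quasi-likelihood, Benjamini-Hochberg over all genes tested) in R 4.3.3 with limma 3.58.1. A gene could be kept through the counts of a single group, so some calls rest on the group where the gene is high. The SE is the absolute log2 fold change over the square root of F. CPM were scaled by TMM over the 36 libraries. Intervals and floors cover counting error only. Python 3.11.15, numpy 2.4.6, pandas 2.3.3 and matplotlib 3.10.9 made tables and figures. The test was checked on simulated counts.

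In the labels the bud sport is called ‘11-06-25’ and the parent ‘Sanbenti’, and the cultivar names used here were matched to them by role. RefSeq symbols matched for 91 members, and 18 were put in a class from further annotation text. Members, lists and tests were chosen with earlier results of these data known. Named are the 10 members with the highest mean FPKM, those called in one direction at 4 or more stages, the called member with the largest change at each stage and direction, members of classes of 3 or fewer, and the largest change in each direction within each cultivar; others are said to be named after their values were seen, or stand in a count of a class or list. Results were also computed by glmTreat, by DESeq2 1.42.0, with each library left out, with the letter of the replicate as a block, in a fit of all 36 libraries, with upper-quartile scaling and with no filter on low counts.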

Additional observations from a re-analysis of the deposited data

Results flagged for a closer look

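The effect of cultivar differed between stages for 50 of 67 tested members (74.6%), against 63.7% of all genes, by the interaction of cultivar and stage in edgeR over all 36 libraries. Of these, 2 genes were called in opposite directions at different stages. VIT_04s0079g00710, the F11-like phi GST, was higher in ‘Nantaihutezao’ at S5 (log2 fold change 6.24) and lower at S10 (-1.45), and its interaction had an FDR of 6.12e-29. VIT_19s0015g02690, the U25-like tau GST, was higher at S5 (2.36) and lower at S9 (-1.03), with an interaction FDR of 9.37e-25. With the libraries of 1 letter left out of all groups, 34 to 44 members passed the interaction. The share of all genes in those fits is not given here, so whether the members stay above it is not known.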

How the results depend on the processing

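Of 223 counts of called members computed under an alternative, 188 were within 1.5 times of those reported. Under glmTreat, which tests against the fold threshold itself, the calls were 0 higher and 0 lower at S6 (2 and 2 as reported), 1 and 2 at S7 (2 and 4), 2 lower at S8 (8), 2 lower at S9 (9), 5 lower at S10 (11) and 0 lower for ‘Nantaihutezao’ S8 over ‘Summer Black’ S10 (5). DESeq2 gave 1 lower at S6 (2), 2 higher at S8 (1), 2 higher at S10 (1), 7 higher for ‘Nantaihutezao’ S10 over S5 (3) and 2 lower for S8 over S10 (5). Without a filter on low counts, 2 were higher at S8, 2 at S10 and 8 for ‘Nantaihutezao’ S10 over S5, and with all 36 libraries in one fit 3, 2 and 5. The cause was not tested. Between the cultivars at the same stage, deviations of equal letters correlated between -0.056 and 0.076, which showed no pairing by letter there. Whether libraries of a letter share a source or batch across stages was not tested. With the letter as a replicate block, 3 members were lower for S8 over S10 (5), 6 at S8 (8) and 50 passed the interaction, and among named genes only VIT_04s0079g00710 at S8 lost its call. Leaving out each library in turn gave 5 to 7 higher and 6 to 9 lower at S5, 2 to 2 and 0 to 2 at S6, 2 to 2 and 4 to 5 at S7, 1 to 1 and 5 to 8 at S8, 2 to 2 and 7 to 10 at S9, 1 to 2 and 10 to 13 at S10, 3 to 5 and 23 to 24 for ‘Nantaihutezao’ S10 over S5, 7 to 8 and 18 to 20 for ‘Summer Black’ S10 over S5, 0 to 1 and 1 to 5 for S8 over S10, and 34 to 44 for the interaction, where a letter was left out in all groups. The shares of all genes in these fits are not given here. At S6, 0 were lower without library a and 1 without library c of ‘Nantaihutezao’, and 1 without library a of ‘Summer Black’. The 2 higher at S10 came without library c of ‘Nantaihutezao’ or a or c of ‘Summer Black’, and the 5 higher for ‘Nantaihutezao’ S10 over S5 without library b of S5 or c of S10. For S8 over S10, 1 was higher without library a of ‘Nantaihutezao’ or c of ‘Summer Black’. Of 68 calls of named genes, 45 held in every setting and none changed sign. DESeq2 lost 3, glmTreat 23, and 28 of 408 fits without 1 library lost the call. Members of a few reads per library limit all of these counts, since 38 of 103 could not be tested at any stage.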
